A study of Mus musculus with 25 samples.

Results

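DNA methylation of the exocrine pancreas was compared with that of the islets of Langerhans in young mice, with 5 exocrine and 5 islet libraries out of the 25 libraries of the study. The comparison covered every interval on the 19 autosomes of mouse build mm9, 22300 of the 22749 intervals in the table, of which 22079 held enough counts to be tested. All 10 mice were FVB, were suckled in control litters of 9 pups and were sampled at postnatal day 21 (P21), so strain, age and litter size were shared and the labelled difference was the tissue. Islets were hand-picked in 3 rounds, with no sorting into cell types described. The exocrine samples were whole pancreas, given by the design as about 98% exocrine. The labels call them acinar cells, but whole pancreas also holds ducts, vessels and the islets themselves. The litter that each mouse came from is not given in the sources used here. A p-value therefore measures the spread between these 10 libraries.

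The pancreas joins an exocrine and an endocrine gland that arise from the same embryonic epithelium. Acinar cells of the exocrine part make digestive enzymes, and islet cells release hormones such as insulin and glucagon into the blood. Methylation of cytosine in CpG dinucleotides is copied when cells divide and differs between cell types mainly at regulatory sequences, so it keeps a record of cell identity. The assay used, methylation-specific amplification followed by sequencing, reads it at the recognition site cccggg. SmaI cuts that site only when it is unmethylated and leaves blunt ends. XmaI then cuts the remaining, methylated copies and leaves overhangs to which adaptors are joined. Only a fragment with a methylated site at both ends is amplified, so the number of reads between neighbouring sites rises with methylation of both. The count is relative and gives no percentage of methylated copies. In DNA from a mixture of cells, a change in the share of a cell type and a change of methylation within a cell cannot be told apart. Intervals were not assigned to genes, because no gene annotation of mm9 was used here, and the labelled tissues could not be checked at the loci of their marker genes. For the same reason intervals are given by their length and their position, as deposited.

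Total counts ran from 2912624 to 5583859 in the islet libraries and from 4427238 to 7739961 in the exocrine libraries. Intervals were 61 to 3000 bp long, with a median of 1174 bp among those tested. The biological coefficient of variation between mice, fitted for each tissue alone, was 28.1% in islets and 27.3% in exocrine tissue. At the median, libraries resembled those of their own tissue more closely than those of the other, with overlapping ranges. The Pearson correlation of log2(CPM + 2) across intervals (CPM, read counts scaled for library size) ran from 0.861 to 0.958 within islets, from 0.920 to 0.980 within exocrine tissue and from 0.794 to 0.944 between tissues, with medians of 0.921, 0.938 and 0.867. These correlations are over the same intervals, which are not independent replicates.

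Exocrine tissue and islets differed at more than 1 in 5 intervals, and the largest differences lay at intervals with less signal in exocrine tissue. Of the 22079 intervals, 4906 (22.2%) passed the quasi-likelihood test of edgeR at an adjusted p under 0.05 with 5 libraries a tissue. Exocrine tissue was higher at 1805 of them (8.18% of those tested) and lower at 3101 (14.0%). The median log2 fold change of exocrine tissue over islets was 0.88 (median SE 0.22) among the higher intervals and -1.33 (median SE 0.32) among the lower ones. A change of over 2-fold was fitted at 718 intervals with more and 2216 with less signal in exocrine tissue. The 5 exocrine libraries lay wholly above the 5 islet libraries at 1179 of the intervals called higher, where 7.14% of all intervals tested showed that separation, and wholly below them at 1727 of those called lower, where 8.36% did. The median level of the lower intervals was 22.4 CPM in islets against 8.56 in exocrine tissue. That of the higher ones was 26.6 CPM in islets against 50.7.

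**Figure D1:**
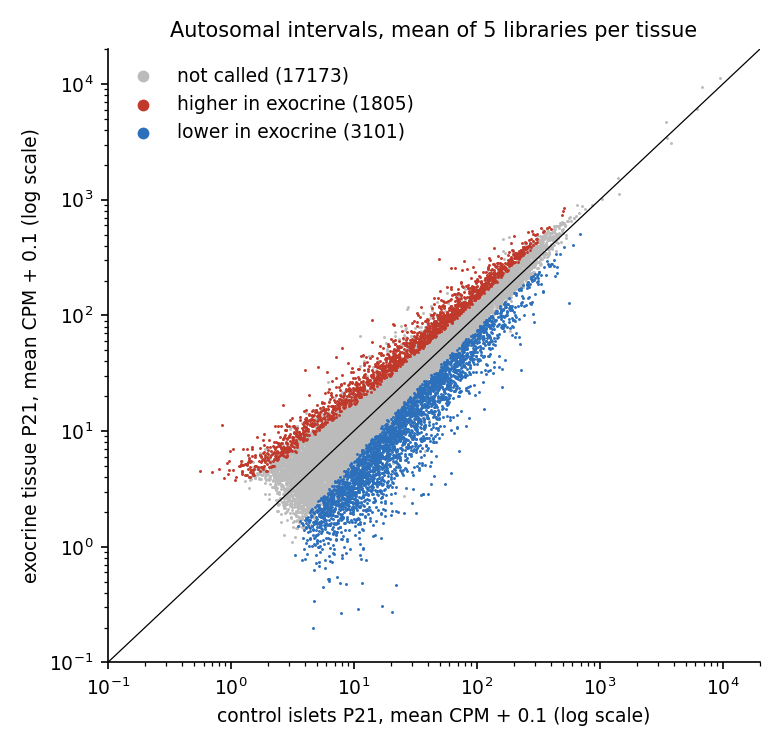
Mean CPM of 5 control islet libraries (x axis, log scale, 0.1 added) against mean CPM of 5 exocrine libraries (y axis, log scale, 0.1 added), with 1 point for each of 22079 autosomal intervals. Red points (1805) were called higher and blue points (3101) lower in exocrine tissue, and the blue points spread farther from the line of equal values.

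Much of the excess of lower calls lay in short intervals. In the shortest of 10 equal-number length classes, 61 to 242 bp, the median log2 fold change was -1.10, and 44.3% of intervals were called lower against 0.587% called higher. In the next class, 243 to 447 bp, the median was -0.33 and 25.7% were called lower. These 2 classes held 49.9% of all lower calls. The trend was not a simple slope. The median was 0.16 at 668 to 901 bp, -0.10 at 1765 to 2119 bp and 0.34 at 2517 to 3000 bp, and in this longest class 10.7% of intervals were called higher and 2.45% lower. A class median moves with every interval of that length and so describes the libraries as well as the loci.

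The libraries differed in how their signal varied with interval length, and the islet libraries were uneven. In the shortest class, the median deviation of log2(CPM + 2) from the mean of all 10 libraries was 1.11 in islet replicate 2, 0.73 in replicate 1, 0.15 in replicate 3, 0.05 in replicate 4 and -0.19 in replicate 5. The exocrine libraries had -0.45, -0.53, -0.20, -0.25 and -0.20 in the same class. Islet replicates 1 and 2 thus stood well above the other islet libraries, and islet replicate 5 lay at the level of exocrine replicates 3 and 5. Intervals under 500 bp took 20.3%, 27.5%, 18.0%, 17.5% and 17.6% of the counts in the 5 islet libraries and 15.5%, 15.4%, 18.6%, 16.5% and 17.2% in the exocrine libraries. The means were 20.2% ± 4.22 and 16.6% ± 1.32 (SD, n = 5 each), and the ranges overlapped (two-sided exact permutation p = 0.0556, Benjamini-Hochberg adjusted p = 0.127 over 4 measures per library). Without islet replicate 2 the exocrine minus islet difference of these means went from -3.54 to -1.72 percentage points. Of the other measures, the rank correlation of the deviation with interval length (adjusted p = 0.159), the share of intervals with a count of 0 (adjusted p = 0.444) and the total count (adjusted p = 0.127) did not pass in the same two-sided exact permutation tests (n = 5 per tissue). Among measures outside these 4, with no adjustment, the mean deviation in the shortest class separated the tissues, at 0.33 ± 0.52 in islets and -0.33 ± 0.15 in exocrine tissue (SD, n = 5 each, two-sided exact permutation p = 0.00794, the smallest that 5 against 5 libraries allow). The libraries did not overlap there, but the lowest islet library (-0.20) and the highest exocrine library (-0.21) nearly met. In the longest class that measure had p = 0.0952 in the same exact permutation test. Whether the length difference arose in the libraries or in the tissues was not tested.

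**Figure D2:**
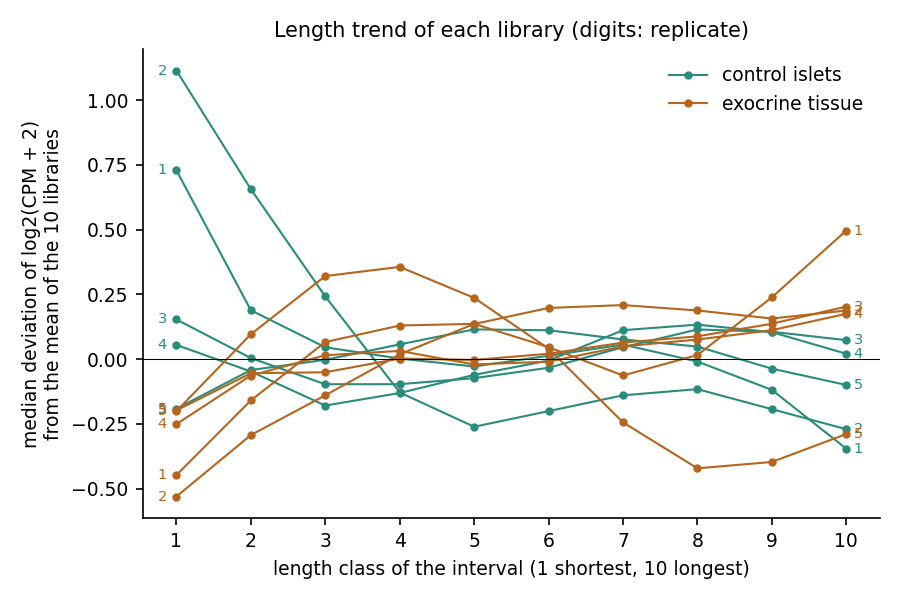
Median deviation of log2(CPM + 2) from the mean of the 10 libraries (y axis) in each of 10 length classes from the shortest (1) to the longest (10) intervals (x axis), with 1 line per library, green for control islets and brown for exocrine tissue, and the replicate number at each end. Islet replicates 2 and 1 lie at 1.11 and 0.73 in class 1, while all 5 exocrine libraries lie below 0 there.

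Within length classes the tissues still differed at single intervals. With each library's trend on length removed, 5255 intervals (23.8%) were called by edgeR at an adjusted p under 0.05. Exocrine tissue was higher at 2581 (11.7%) and lower at 2674 (12.1%). Higher intervals made up 49.1% of these calls, against 36.8% with the libraries only scaled. Removing the trend centres each length class near 0 (class medians from -0.06 to 0.09), so the near-even split of directions largely follows from the correction and does not measure a balance between the tissues. In the shortest class 11.7% of intervals were then higher and 12.7% lower, and the class median was -0.06. At 668 to 901 bp the shares were 16.6% and 15.2%, and in the longest class 6.17% and 7.80%. Of the intervals called with scaling alone, 1644 of 1805 higher (91.1%) and 2152 of 3101 lower (69.4%) were called in the same direction with the trend removed, and 0 were called in the opposite direction. A further 937 higher and 522 lower intervals were called only with the trend removed. The size of the differences remained uneven between directions: 877 intervals were over 2-fold higher and 1396 over 2-fold lower, and 56 were over 4-fold higher against 245 over 4-fold lower. The table covers 25 libraries, most of them from islets, and whether that shapes the unevenness was not tested.

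**Figure D3:**
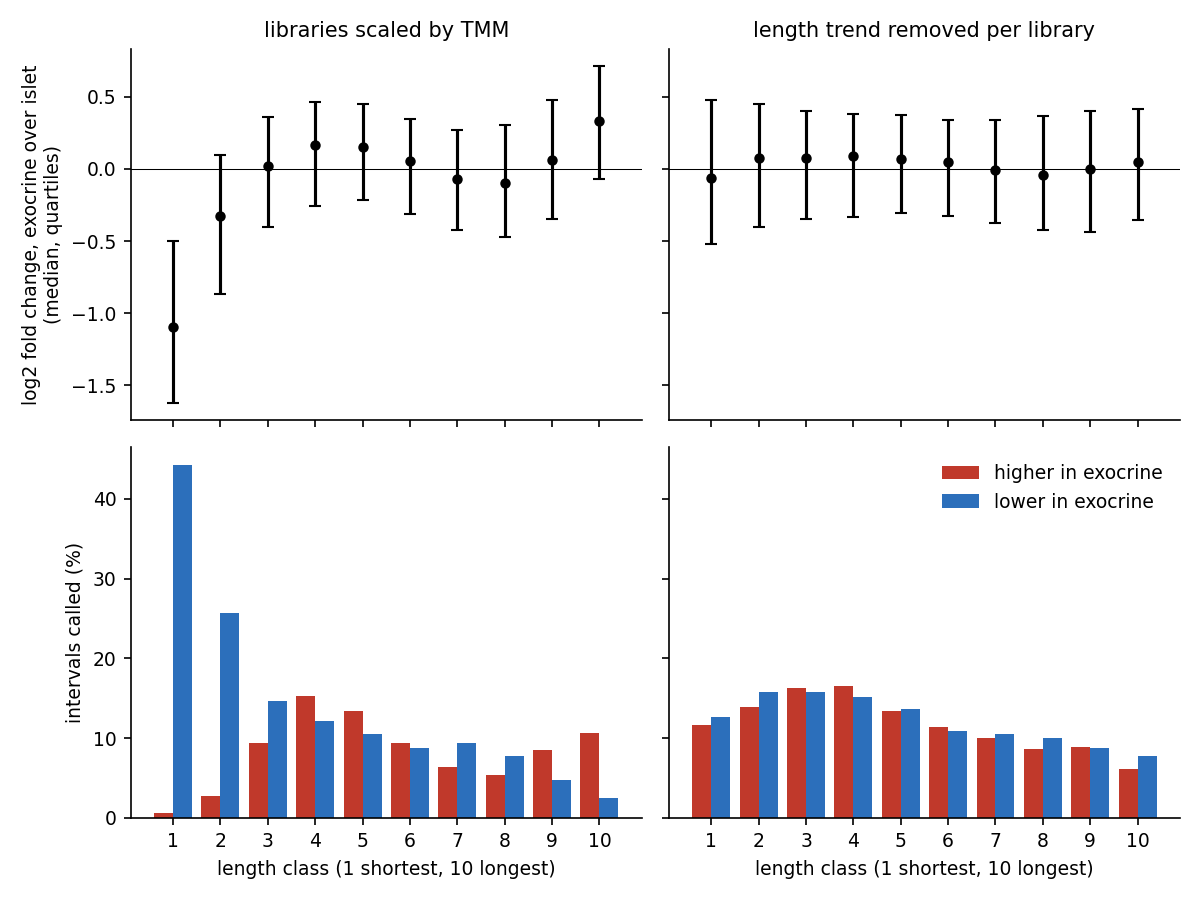
Top, median log2 fold change of exocrine tissue over islets with its quartiles (y axis) in 10 length classes of intervals (x axis); bottom, percent of intervals called higher (red) or lower (blue) in exocrine tissue. Scaled libraries are on the left, where the shortest class has a median of -1.10 and 44.3% lower calls, and libraries with their length trend removed are on the right, where that class has -0.06 and 12.7%.

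Gains of signal in exocrine tissue are shown by examples from every range of length. The 10 intervals taken in each direction were called in both fits, did not overlap between tissues and held at least 100 counts in the lower tissue. The 2 with the largest fold change per direction were taken from each of 5 length classes of equal number. The values per library that follow chose them and are a description. At chr4:148341234-148342302 (1068 bp) the islet libraries had 67.6, 42.1, 70.5, 66.8 and 58.4 CPM and the exocrine libraries 259, 270, 243, 233 and 282. Each exocrine mouse was thus more than 3-fold above each islet mouse. The fitted log2 fold change of 2.02 ± 0.16 (SE) had an adjusted p of 1.17e-06 in edgeR, and was 1.95 ± 0.12 with the length trend removed. At chr4:108612692-108613886 (1194 bp) islets had 6.48, 4.78, 7.97, 7.88 and 7.91 CPM and exocrine tissue 46.1, 57.5, 41.2, 32.3 and 40.6 (log2 fold change 2.58 ± 0.23). Both tissues were uniform at this interval, and its islet values rest on 144 counts. At chr8:122962839-122964815 (1976 bp) islets had 13.3, 9.09, 7.36, 7.88 and 6.38 CPM and exocrine tissue 53.2, 45.0, 30.5, 29.8 and 34.6 (log2 fold change 2.08 ± 0.25).

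Short and long intervals gave examples on the same side. At chr2:35085123-35085569 (446 bp) islets had 11.6, 17.7, 18.1, 18.2 and 20.2 CPM and exocrine tissue 47.6, 33.1, 41.0, 48.3 and 56.5. The log2 fold change was 1.34 ± 0.21, and 1.48 ± 0.19 with the length trend removed, so removing the trend made the difference larger. The 2 fits lay farthest apart at chr9:107407619-107407681, which at 62 bp is near the shortest interval of the table: its means of 8.26 CPM ± 2.74 and 26.0 ± 5.52 (SD, n = 5 each) gave a log2 fold change of 1.62 ± 0.27, but 3.05 ± 0.48 with the trend removed. At chr16:20635779-20638647 (2868 bp) islets had 5.80, 5.50, 6.75, 9.03 and 11.7 CPM and exocrine tissue 34.5, 20.96, 25.6, 24.9 and 21.2 (log2 fold change 1.65 ± 0.26), or 1.32 ± 0.22 with the trend removed. Among the 10 higher intervals, the exocrine mice differed most from each other at chr14:70375990-70378926 (2936 bp), with 60.6, 15.0, 16.2, 10.01 and 40.2 CPM against 5.26 to 8.93 in islets. Exocrine replicates 1 and 5 stood far above the other three there. At chr12:113839675-113841562 the tissues nearly met, since islet replicate 5 had 12.5 CPM and exocrine replicate 4 had 13.8. At chr1:172416585-172417444 (859 bp) the islet mice were uneven instead, with 3.75, 14.8, 0, 7.55 and 13.5 CPM against 38.4 to 63.8 in exocrine tissue. Its log2 fold change of 2.63 ± 0.59 had the largest error of the 10. The 10 higher intervals, with chr2:118519375-118519954 at the top, had log2 fold changes from 1.34 to 2.65.

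Losses of signal in exocrine tissue were larger among the intervals taken, also at intervals with many counts. Gains had the tighter bound, because the lower tissue needed at least 100 counts and the islet libraries held fewer counts at the mean. The table also held no interval below 148 counts over the 25 libraries, most of them from islets. At chr2:116802370-116803045 (675 bp) the islet libraries had 77.5, 80.1, 69.0, 72.5 and 62.0 CPM and the exocrine libraries 8.30, 5.55, 5.98, 5.34 and 7.80. The spread within each tissue was small, and every exocrine mouse lay at least 7-fold below every islet mouse. The fitted log2 fold change of -3.50 ± 0.20 (SE) had an adjusted p of 3.75e-08 in edgeR, and was -3.54 ± 0.17 with the length trend removed. At chr7:56502300-56502777 (477 bp) islets had 69.6, 111, 49.99, 37.9 and 40.8 CPM and exocrine tissue 4.40, 2.88, 1.92, 6.45 and 5.77 (log2 fold change -3.90 ± 0.38). The islet values here spread almost 3-fold, with replicates 2 and 1 highest. In its length class the median deviations of the islet libraries ran from -0.18 in replicate 4 to 0.24 in replicate 2 on the log2 scale. Whether this spread is linked to the length trend was not tested. At chr7:17367525-17369439 (1914 bp) islets had 65.9, 93.2, 72.1, 58.9 and 116 CPM and exocrine tissue 13.0, 9.66, 10.9, 8.90 and 12.8 (log2 fold change -2.92 ± 0.22).

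**Figure D4:**
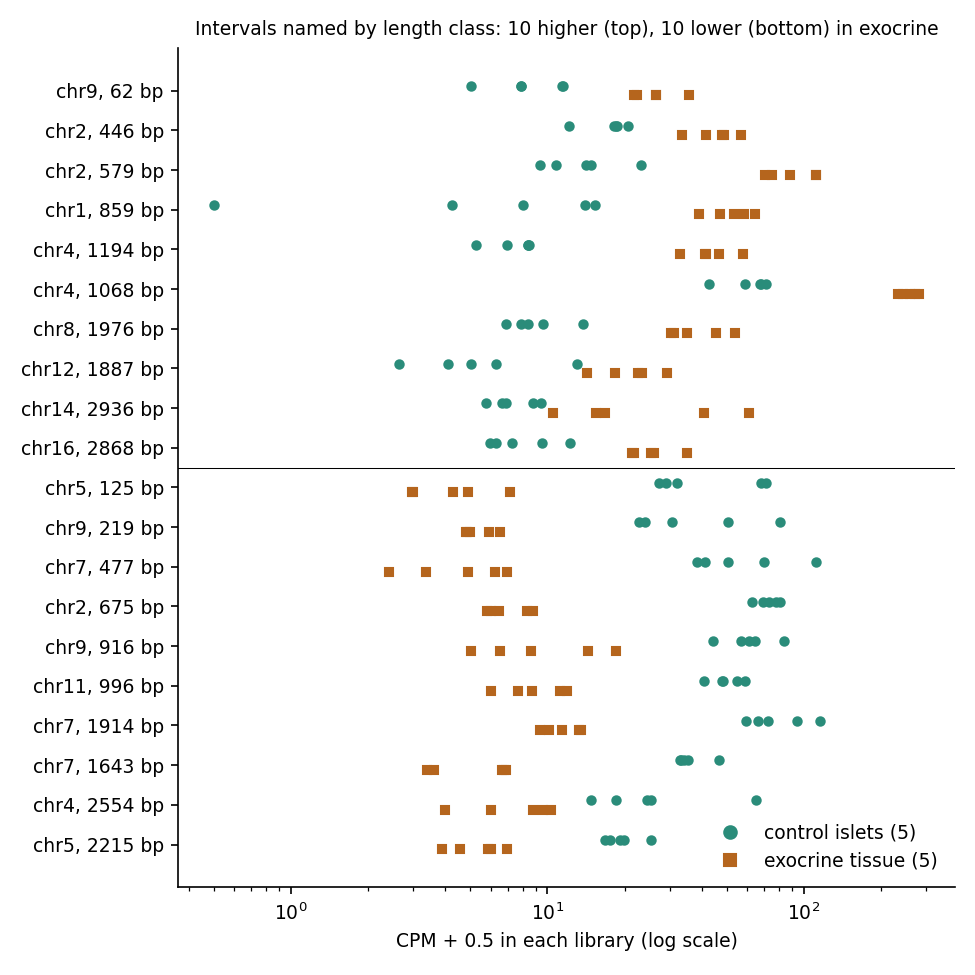
CPM in each library (x axis, log scale, 0.5 added) at 10 intervals higher (above the line) and 10 lower (below it) in exocrine tissue, each labelled by chromosome and length and ordered by length class. Green circles are 5 control islet libraries and brown squares 5 exocrine libraries; the colours do not mix in any row because intervals were chosen for separation, and the gap is narrowest at chromosome 12, 1887 bp (12.5 against 13.8 CPM).

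The 2 fits differed most at the shortest intervals on this side. At chr5:135465597-135465722 (125 bp) islets had 67.6, 70.5, 31.6, 28.6 and 26.8 CPM and exocrine tissue 4.40, 2.47, 6.62, 3.78 and 2.50. The log2 fold change was -3.57 ± 0.38 with scaling alone and -2.30 ± 0.24 with the trend removed. At chr9:61866494-61866713 (219 bp) the values were -3.13 ± 0.36 and -2.22 ± 0.21. Longer intervals moved little: at chr11:4964239-4965235 (996 bp), where islets had 49.6 CPM ± 6.95 and exocrine tissue 8.61 ± 2.42 (SD, n = 5 each), they were -2.57 ± 0.22 and -2.67 ± 0.19. At chr5:142514379-142516594 (2215 bp) islets had 17.1, 16.3, 24.8, 19.4 and 18.6 CPM and exocrine tissue 3.39, 5.34, 5.55, 6.45 and 4.06, with log2 fold changes of -2.01 ± 0.27 and -2.02 ± 0.23. At chr4:139799632-139802186 (2554 bp) islet replicate 2 had 64.8 CPM against 14.3 to 24.9 in the other islet libraries, and exocrine tissue had 3.49 to 9.79. The 10 lower intervals, which include chr9:44303234-44304150 at -2.64 ± 0.32 and chr7:106590251-106591894 at -2.90 ± 0.27, had log2 fold changes from -3.90 to -2.01. All 20 intervals of both sides stayed past the threshold when any 1 library was left out (highest adjusted p 0.0295 for the higher and 0.00918 for the lower ones, edgeR). They were chosen for separation in these same libraries, so this is a description and no independent check.

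Signal was close to absent from one tissue at a single called interval. At chr1:138849564-138850125 (561 bp) the exocrine libraries held 3 counts in all and the islet libraries 92. Per count sequenced, the exocrine level was 2.30% of the islet level, with an exact 95% interval of 0.466% to 6.94% that covers counting error only. The islet libraries had 6.82, 6.69, 2.76, 4.10 and 2.55 CPM there, and 3 of the 5 exocrine libraries had none. No interval called higher in exocrine tissue had so few counts in islets. The table held no interval below 148 counts over the 25 libraries, most of them from islets. An interval near silent in all islets could reach that total only through the exocrine libraries, so this absence does not compare the tissues.

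Differences of adjoining intervals, which share the site between them, tended to go together. Across 5828 such pairs the log2 fold changes had a Pearson correlation of 0.474, and 65.8% of pairs had the same sign. With length trends removed the values were 0.485 and 65.4%. Neighbours that shared no site but lay less than 1 kb apart had a correlation of 0.356 in the class with the fewest pairs, and those 1 to 5 kb apart 0.1197 over 870 pairs. From 5 to 20 kb it was -0.00220 over 3349 pairs, and from 20 kb to the widest gap it lay between -0.00408 and 0.0269. The resemblance thus fell away within about 5 kb. Pairs share their libraries and often their length and base composition, and adjoining intervals also share a site, so these values describe the table and carry no test. Of the 495 adjoining pairs whose first interval was called higher, the second was called higher in 33.1% and lower in 3.64%, where 8.18% and 14.0% of all intervals were. Of 801 whose first was called lower, the second was called lower in 38.8% and higher in 2.75%.

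**Figure D5:**
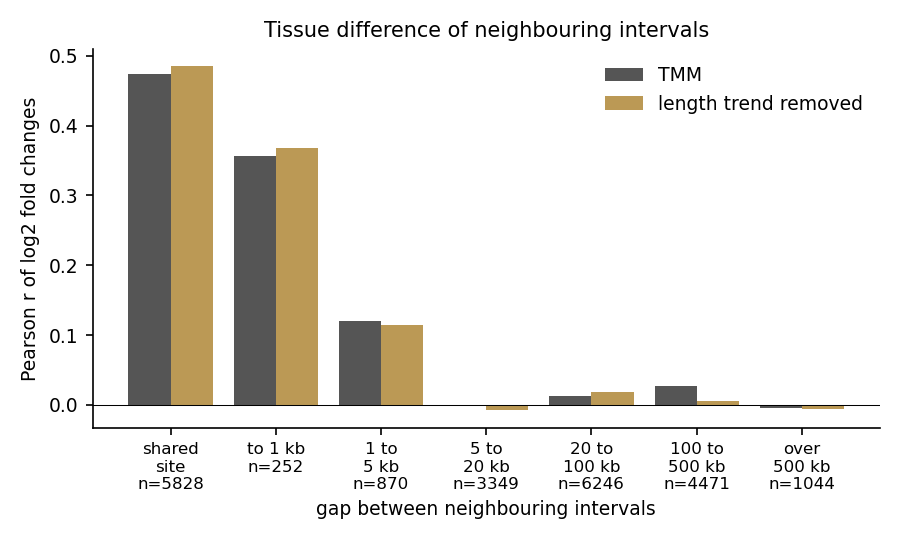
Pearson correlation of the log2 fold changes (exocrine over islet) of neighbouring intervals (y axis) by the gap between them (x axis, number of pairs below each class), with scaling alone (grey) and with length trends removed (tan). The correlation is 0.474 for intervals that share a site, 0.1197 at 1 to 5 kb and near 0 beyond.

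Consecutive intervals called in the same direction formed 150 stretches on the higher side and 273 on the lower side, of which 13 and 32 held 3 or more intervals. Of 3 lower stretches named, each of 4 intervals, the largest loss of signal lay in chr15:78755618-78757722, with 4 intervals over 2104 bp and log2 fold changes from -3.86 to -2.82. Its second interval, chr15:78756449-78757091, had 46.7, 42.6, 43.9, 35.1 and 32.7 CPM in islets against 4.06, 1.23, 1.71, 1.33 and 5.46 in exocrine tissue (log2 fold change -3.86 ± 0.36, adjusted p = 5.45e-06, edgeR). Exocrine replicates 1 and 5 were the highest of their tissue in all 4 intervals of the stretch, as at chr15:78755618-78756449, where the exocrine libraries had 19.3, 4.52, 4.48, 4.45 and 15.0 CPM against 48.8 to 77.6 in islets. The same 2 replicates led exocrine tissue at chr14:22801946-22802760, with 9.82 and 12.9 CPM against 2.00 to 4.91 in the other three, while the 5 islet libraries lay between 28.3 and 31.0. That interval opens a stretch of 4 (chr14:22801946-22806831) with log2 fold changes from -2.77 to -1.33, of which only 2 did not overlap between tissues. Its last interval, chr14:22804000-22806831, is the weakest and fell short of the threshold in 7 of the 10 fits that each left out 1 library.

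A graded loss ran through chr7:148650177-148653249. From the first to the last of its 4 intervals, the islet means were 78.3, 48.2, 29.7 and 7.94 CPM and the exocrine means 56.8, 20.02, 4.31 and 0.747, and the log2 fold changes were -0.52 ± 0.17, -1.32 ± 0.25, -2.82 ± 0.37 and -3.40 ± 0.45. The tissues overlapped at the first interval, chr7:148650177-148650705, which also fell short of the threshold in 7 of the 10 leave-one-out refits, and not at the other three. On the higher side 1 stretch held 4 intervals, chr5:115996785-116000182, with small differences at high signal, and 3 of the 4 did not overlap between tissues. Next to the last, chr5:115998014-115998665 had 281, 276, 206, 224 and 249 CPM in islets against 333, 410, 344, 395 and 429 in exocrine tissue, which is a log2 fold change of 0.58 ± 0.14. Its first and last intervals, chr5:115996785-115997420 and chr5:115998665-116000182, fell short of the threshold in 3 and 2 of those refits. A larger gain was shared by the 3 intervals of chr15:78370414-78376252, with log2 fold changes from 1.18 to 1.81. Its middle interval, chr15:78372931-78374305, had 35.1, 24.6, 28.5, 38.9 and 46.7 CPM in islets against 129, 119, 110, 88.1 and 147 in exocrine tissue. The 3 intervals of chr4:125928860-125933272 had log2 fold changes from 1.18 to 1.82, over islet means from 2.72 to 76.1 CPM. This gain and that on chromosome 15 did not overlap between tissues at any of their intervals. Among all intervals tested, 7.14% lay wholly higher and 8.36% wholly lower in exocrine tissue. Among those called, 1179 of 1805 higher and 1727 of 3101 lower ones did. The stretches were chosen by calls in these same libraries, so their separations are a description.

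The balance of directions differed between classes of signal level, and within a class it also followed interval length. Intervals were ranked into 5 equal classes by mean CPM. In the class with the highest mean CPM over the 10 libraries, from 63.3 CPM up, 15.1% were called higher and 9.26% lower in exocrine tissue, and with length trends removed 21.4% and 10.2%. In the class below 6.51 CPM the shares were 5.62% and 13.5%, and with trends removed 7.40% and 9.83%. The error fell with the level, from a median SE of 0.42 in the lowest class to 0.17 in the highest, so the same fold change was called more readily there. High signal and medium length went together (median length 800 bp in the highest class and 1674 bp in the lowest). All 19 autosomes held calls in both directions. Higher calls ran from 6.08% of intervals on chromosome 3 to 10.1% on chromosome 7, and lower calls from 11.5% on chromosome 14 to 16.9% on chromosome 12. The chromosome medians of the log2 fold change lay between -0.11 and 0.05.

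Intervals with no large difference were also resolved. At 1660 intervals (7.52%) the 95% interval of the log2 fold change lay within 0.5 on either side of 0, and at 10351 (46.9%) within 1. The strongest of the former was chr2:92812929-92813782, with 1056, 927, 1048, 898 and 1251 CPM in islets against 922, 900, 992, 967 and 1263 in exocrine tissue (log2 fold change -0.09, 95% interval -0.39 to 0.21). At chr9:110529075-110530060 the means were 682 CPM ± 146 and 763 ± 143 (SD, n = 5 each), with a 95% interval of -0.23 to 0.46. The other interval named by this rule, on chromosome 18, had a 95% interval of -0.26 to 0.41.

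Among the islet libraries, replicate 5 lay nearest to the exocrine level at the intervals that differed. Over the 1644 intervals called higher in exocrine tissue in both fits, it was the highest of the 5 islet libraries at 47.8% and, with length bins centred in each library, at 40.8%. Over the 2152 called lower in both fits it was the lowest at 49.3% and 52.9%. Its median deviation from the islet mean, with length bins centred, was 0.15 on the log2 scale at the higher and -0.23 at the lower intervals. With this library left out, the calls numbered 2278 higher and 3672 lower. Among exocrine libraries, replicate 5 was the highest at 40.9% of the higher intervals and replicate 1 at 25.7% with length bins centred, while at the lower intervals the share at which each was the lowest ran only up to 23.0%. The same shares were not taken over all intervals tested. Whether these libraries stood out only where the tissues differed was not tested.

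Islets of other mice give the level of the islet side in animals outside the comparison. The 10 higher and 10 lower intervals named by length were chosen for not overlapping these same exocrine libraries, so the counts that follow are a description. Islets of small-litter mice (4 pups) at P21 did not overlap exocrine tissue at 9 of the 10 higher intervals (6.30% of all intervals tested) and at 10 of the 10 lower ones (6.83%). Control islets at P180 did not overlap it at 8 (5.85%) and 9 (6.01%), and small-litter islets at P180 at 9 (5.45%) and 10 (6.03%). With small-litter P21 islets in place of the control islets, chr16:20635779-20638647 no longer passed the threshold (log2 fold change 1.04, adjusted p = 0.0529, edgeR). At chr2:116802370-116803045, for example, small-litter P21 islets had 79.2 CPM, against 72.2 in control P21 islets and 6.59 in exocrine tissue, and islets at P180 had 62.9 in control mice and 68.4 in small-litter ones. At chr4:148341234-148342302 small-litter P21 islets had 63.4 CPM, near the 61.1 of control P21 islets, while P180 islets had 106 in control and 118 in small-litter mice and exocrine tissue 257. At chr12:113839675-113841562 the P180 islets had 4.32 and 4.94 CPM, below the 5.72 of control P21 islets, with 21.04 in exocrine tissue. At chr2:118519375-118519954 control islets went the other way, from 14.0 CPM at P21 to 39.7 at P180. Over all 1805 higher intervals, small-litter P21 islets had a median log2 ratio to control P21 islets of 0.051. Control P180 islets had 0.13 and small-litter P180 islets 0.17. Over the 3101 lower ones the medians were -0.088, -0.25 and -0.29 in the same order. The calls used the control P21 libraries, so these medians are a description.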

How the data were processed

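DNA methylation of 25 FVB mice was measured by methylation-specific amplification and sequencing, and the 10 control P21 libraries (5 islet, 5 exocrine) were compared. Per the submitters' processing notes, FastQC 0.10.1, cutadapt, Bowtie 0.12.9 and build mm9 were used. The authors deposited raw read counts per interval, without scaling. How they assigned reads to intervals or treated duplicates is not given in the sources used here. Reads were amplified and are not independent molecules.

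Counts were analysed with edgeR 4.0.16 in R 4.3.3: filterByExpr, TMM scaling, a robust quasi-likelihood fit of the 10 libraries and Benjamini-Hochberg adjustment over all chromosomes at 0.05, with autosomes reported. CPM were scaled by TMM over 25 libraries. The length correction used a lowess (span 0.3) of each library's deviation on log length as an offset. The fits were run on simulated data with 100 intervals changed 2-fold and 100 changed 4-fold, each with a mean of at least 20 counts. Without length trends both fits recovered 38% and 88% of them. With a random straight trend on log length added to each library, whatever its tissue, the fit with scaling alone recovered 2% and 40%. The length-corrected fit then recovered 39% and 90%. Calls at unchanged intervals numbered 11 in both fits without trends. With trends they numbered 0 with scaling alone and 10 with the correction. Trends in the data were not straight and differed between tissues in the shortest class, so the simulation cannot show how the correction performs on them. SEs came from the test statistic.

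Members, lists, named intervals and alternatives were chosen with earlier results of these data known. Intervals were named by these rules: the 2 largest changes per direction in each of 5 length classes among those called in both fits, not overlapping, with at least 100 counts in the lower tissue; called intervals with at most 3 counts in a tissue; up to 3 stretches per direction; and the highest CPM among intervals whose 95% interval lay within 0.5. Replicate pairs differed beyond counting noise (chi-square per degree of freedom from 4.90 to 21.5), so each library counted once. Alternatives were other scalings, filters, DESeq2 1.42.0, limma 3.58.1, a replicate block, all 25 libraries, autosomes only, small-litter islets and each library left out. Figures were drawn with matplotlib 3.10.9.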

Additional observations from a re-analysis of the deposited data

Results flagged for a closer look

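The distance from the highest or lowest of 5 libraries to the next one, as a share of the whole range, was set against a critical value of 0.71. It passed in 7 of 56 groups examined, where chance gives about 1 in 20, and intervals that share libraries are not independent. Among the measures per library, islet replicate 2 had 27.5% of its counts in intervals under 500 bp, above the other islet libraries, and exocrine replicate 5 had a rank correlation of -0.296 between its deviation and interval length, where the other exocrine libraries were all positive. Leaving out both libraries, which was decided after the data had been seen, gave 1278 higher and 2238 lower calls. Among the intervals, islet replicate 1 was low at chr2:35085123-35085569 (11.6 CPM) and high at chr7:106590251-106591894 (46.1 CPM), islet replicate 2 was high at chr4:139799632-139802186 (64.8 CPM), and exocrine replicate 5 was high at chr2:92812929-92813782 (1263 CPM) and chr9:110529075-110530060 (1016 CPM).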

How the results depend on the processing

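The number of intervals higher in exocrine tissue was 2785 with all 25 libraries in one fit and 2925 with limma voom, against 1805. The number lower was 2058 with the replicate number as a block, against 3101. Among intervals with a mean of at least 50 counts it was 1959. That filter left 14231 intervals to test in place of 22079, so this count has a smaller base and is no sign of a changed share. The replicate block gave 1326 higher intervals. Same-numbered islet and exocrine libraries did not deviate together (correlations from -0.262 to 0.0583), and no library deviated most like its namesake, so the numbers were not taken to pair them. These deviations also carry the length trend of each library, so the correlations cannot exclude pairing. Every other scaling, filter, test and set of libraries gave counts within 1.5 times. With 1 library left out, the counts ran from 1289 to 2278 higher and from 2165 to 3672 lower. The median log2 difference ran from -1.24 to -0.76 in the shortest length class and from 0.24 to 0.46 in the longest, and with length trends removed it was -0.064 and 0.051. For the share of counts in short intervals, a limit of 300 bp gave a difference of -2.16 percentage points (two-sided exact permutation p = 0.0159, n = 5 per tissue), a limit of 1000 bp gave -0.876 (exact permutation p = 0.698), and leaving out 1 library at the limit of 500 bp, chosen after seeing the data, gave -4.20 to -1.72 (unadjusted two-sided exact permutation p from 0.0397, without islet replicate 3, 4 or 5, to 0.151, without exocrine replicate 1 or 2, with n = 4 and 5). Of 43 named intervals called, 39 kept their call with any 1 library left out. All other alternatives tested 35 of them, of which 31 kept their call in each. The other 8 had too few counts for 1 or more alternatives, and 7 of these kept it where tested. None reversed (0). Low counts limit the size of the fold changes at the weakest intervals.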
